A study of Emberiza bruniceps with 4 samples.

Results

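Hypothalamic RNA of castrated red-headed buntings sampled in spring was set against that of intact birds sampled in spring, with 1 library in each group. Contigs were given to genes by their best match to a collared flycatcher protein, estimated counts were summed by protein name, and the 10559 names of 11945 that averaged at least 1 CPM (counts per 1000000 counts) over the 4 libraries of the series were described. Neither group had a replicate, so no spread between birds could be measured and no p-value is given. A gene is called when its CPM differed at least 2-fold, after 0.5 CPM was added to each library before the log2 ratio of the castrated over the intact library was taken. Ranges in parentheses after a ratio are exact (Clopper-Pearson) 95% intervals from the split of the counts, computed without the added 0.5 CPM. These intervals, and the limit of 3 counts that a count of 0 allows, concern counting error only and leave out the spread between birds. A fold given as "at least" sets the observed CPM over the CPM of 3 counts in the other library. It takes the observed count as exact, so the limit of an exact interval would be lower, most of all for few counts. The reads carry no molecular identifiers and cannot be taken as separate molecules, so the intervals may be too narrow even for counting error.

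The red-headed bunting (Emberiza bruniceps) is a migratory songbird, and the birds were caught from the wild. The series holds 4 libraries: castrated and intact birds in spring, and castrated and intact birds in autumn. The labels name the hypothalamus as the tissue and give the season and the gonadal state. They do not give the number of birds in a library, their sex or age, when castration was done or how the hypothalamus was dissected.

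In birds, lengthening days are read by photoreceptors deep in the brain, thyroid hormone is activated in the mediobasal hypothalamus, and gonadotropin-releasing hormone neurons then drive the pituitary to release the gonadotropins that make the gonads grow. Gonadal steroids feed back on the hypothalamus and pituitary through androgen, estrogen and progesterone receptors, and aromatase makes estrogen from androgen within the brain itself. Removing the gonads takes away that feedback, and the gonadotropin genes of the pituitary are known to be held down by it. The comparison describes how the spring library of castrated birds differed from that of intact birds. Whether any difference came from missing gonadal hormones was not tested.

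The castrated library held 16840270 estimated counts, of which 6759920 fell on matched contigs, and the intact library 18155277, of which 7258578 did. A count of 0 allows up to 0.429 CPM in the castrated library and 0.411 CPM in the intact library. Between the 2 libraries, 909 genes (8.61%) were at least 2-fold higher in the castrated library and 1539 genes (14.6%) at least 2-fold lower. The median log2 ratio of all genes was 0.01, and the middle 50% of genes lay between -0.574 and 0.466. At 4-fold the counts were 198 higher and 488 lower, and at 16-fold 26 and 54. The whole counting interval lay past 2-fold for 446 of the 909 and 1044 of the 1539. Calls were most frequent among low genes, at 36.8% of those averaging 1 to 5 CPM and 20.3% of those over 100 CPM. The autumn pair shares no library with the spring pair. There 12.3% of genes were called higher and 15.2% lower, 27.6% in all. In both seasons 476 genes were called higher (52.4% of the spring calls and 36.5% of the autumn calls), and 1014 were called lower (65.9% and 63.1%).

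**Figure D1:**
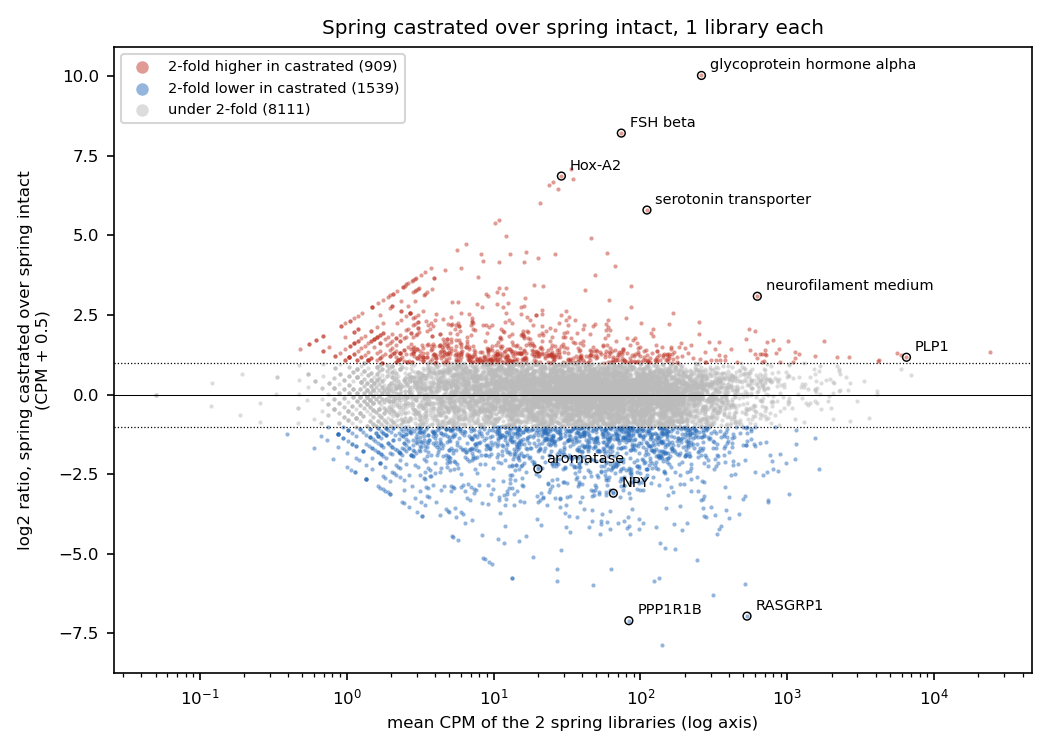
Each point is 1 of 10559 genes, with the mean CPM of both spring libraries on a log axis and the log2 ratio of the castrated over the intact library on the other; dotted lines mark 2-fold. Higher calls number 909 and reach a ratio of 10.03 (glycoprotein hormone alpha chain, which had 0 counts in the intact library), while lower calls number 1539 and reach -7.86 (multiple PDZ domain protein).

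Most marker genes of the pituitary, of the midbrain and of the hindbrain were higher in the castrated library, and most of the telencephalon and striatum were lower (the lists share some members). Of 21 measured pituitary markers, 14 were at least 2-fold higher, 1 was lower and 6 were neither, with a median log2 ratio of 1.72 beside 0.01 for all genes. Of 23 thalamus and midbrain markers, 16 were higher and 1 was lower, and of 15 hindbrain and spinal cord markers 11 were higher and 1 was lower, with medians of 2.39 and 2.79. The thalamic markers TCF7L2 (-0.25), GBX2 (0.61) and LHX9 (0.009) were within 2-fold, and the lower gene of their list was protein kinase C delta (-1.73). Of 34 telencephalon and striatum markers, 3 were higher and 22 were lower, with a median of -2.24. Calls made up 71.4% of the pituitary list and 73.9% of the thalamus and midbrain list. They made up 80% of the hindbrain and spinal cord list and 73.5% of the telencephalon and striatum list, beside 23.2% of all genes. The piece of tissue, the birds and castration itself cannot be told apart with 1 library in each group, and this holds for every difference given here. In bulk tissue, fewer cells of a type and less RNA per cell cannot be told apart either.

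**Figure D2:**
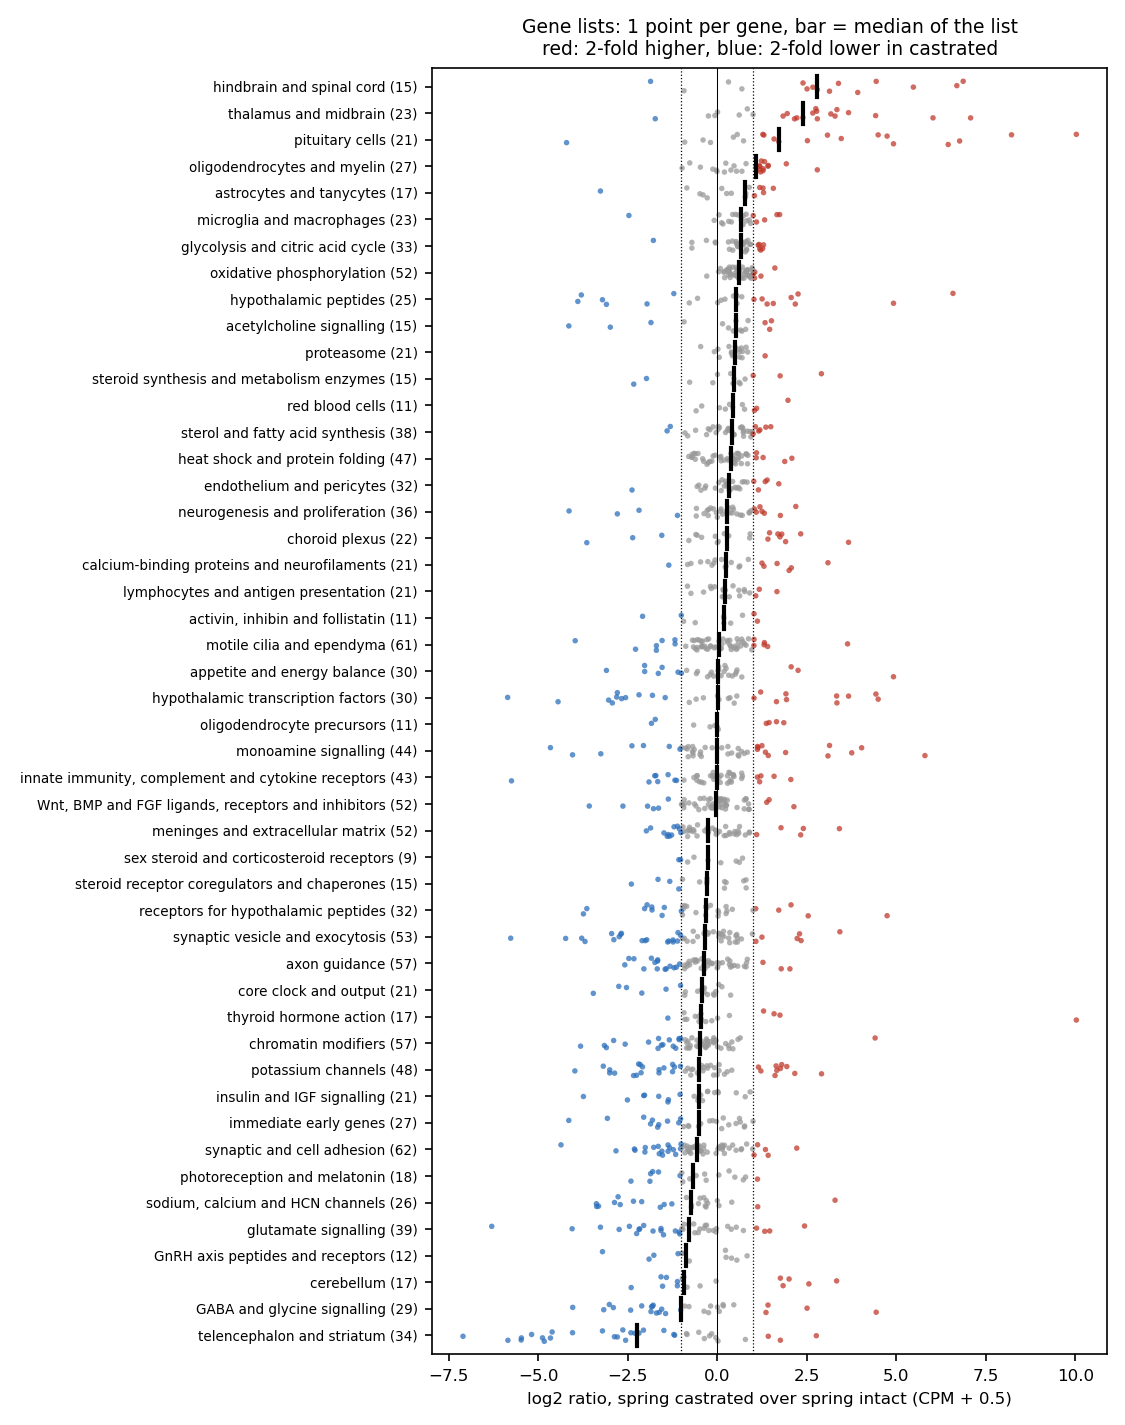
Each point is 1 gene of a list, placed by its log2 ratio of the castrated over the intact spring library, with the number of measured genes in brackets and a black bar at the median; red and blue points passed 2-fold. List medians run from -2.24 for telencephalon and striatum to 2.79 for hindbrain and spinal cord.

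Several hormone genes of the anterior pituitary were higher in the castrated library, and some had 0 or 1 count in the intact one. The glycoprotein hormone alpha chain, the subunit shared by the gonadotropins and thyrotropin, had 3637 counts (521 CPM) in the castrated library and 0 in the intact library, which makes it at least 1267-fold higher. The beta subunit of follitropin, the gonadotropin that acts on the ovary and on Sertoli cells, had 1035 counts (148 CPM) in the castrated library and 0 in the intact library, at least 360.5-fold higher. Both rest on a single contig with 10 or more counts, which matched the flycatcher protein at 99.2% and 97.7% identity. In autumn the alpha chain stood at 32.5 CPM in castrated and 0.270 CPM in intact birds, and the follitropin beta subunit at 0.594 and 0.135 CPM. The spring castrated library was thus the one library of the 4 with follitropin beta mRNA above 0.594 CPM. The matches covered 13.2% and 16.4% of those contigs.

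Hormones of other pituitary cell types were higher too. Prolactin had 481 counts in the castrated library against 1 in the intact library, a log2 ratio of 6.77 (6.49 to 14.28). Somatotropin, or growth hormone, had 385 against 1 counts (6.45, 6.17 to 13.96). Pro-opiomelanocortin, the precursor of corticotropin and melanocortins and also made by hypothalamic neurons, stood at 89.3 CPM against 2.47 CPM (4.92, 4.51 to 5.94). In autumn the same direction was seen, at 81.8 CPM in castrated against 0 CPM in intact birds for prolactin, 185 against 0 CPM for somatotropin and 196 against 0.135 CPM for pro-opiomelanocortin. The beta subunit of thyrotropin was barely detected, with 7 counts against 0. That is at least 2.44-fold higher if the 7 counts are taken as exact, and less with their counting error.

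Some receptors and transcription factors of pituitary cells were higher as well, and others were within 2-fold. The vasopressin V1b receptor, found on corticotrophs, had 90 counts in the castrated library and 0 in the intact library, at least 31.3-fold higher. The pituitary homeobox gene PITX1 had 35 counts against 0 (at least 12.2-fold higher), and the LIM homeobox gene LHX3, which acts in early pituitary development, 26 against 0 (at least 9.06-fold). The pituitary-specific positive transcription factor 1 (POU1F1), which prolactin and growth hormone cells need, stood at 7.30 against 4.79 CPM (0.56, -0.04 to 1.27), within 2-fold and with an interval that includes equal levels. The thyrotropin-releasing hormone receptor stood at 4.29 against 8.49 CPM (-0.91, -1.66 to -0.33). Outside the pituitary list, steroidogenic factor 1, a nuclear receptor of gonadotrophs and of the ventromedial hypothalamus, stood at 16.2 against 0.274 CPM (4.43, 3.997 to 8.95). The exception among the called markers was DLK1 (protein delta homolog 1), a regulator of cell differentiation that the pituitary and other tissues make, at 9.59 against 186 CPM (-4.21, -4.65 to -3.92). Over the list, 7 of 21 markers were at 0 in the intact library and none in the castrated library, and the summed level was 4925 CPM in the castrated and 2515 CPM in the intact library. Much of that sum is secretogranin-2, which neurons make as well, at 2792 and 1677 CPM. Among all 10559 genes, 52 were at 0 in the intact library and 39 in the castrated library. More pituitary tissue in the castrated piece and a response of gonadotrophs to castration cannot be told apart.

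Several Hox genes, which position the hindbrain, were present in the castrated library and had 0 or 1 count in the intact one. Hox-A2, which is expressed from the second rhombomere backward, had 404 counts in the castrated library and 0 in the intact library (at least 141-fold higher). Hox-A3 had 357 against 0 counts and Hox-D3 152 against 0, at least 124-fold and 52.9-fold higher. Hox-D4 stood at 9.16 against 0.137 CPM (3.92, 3.53 to 11.39), and PHOX2A, a factor of noradrenergic and motor neurons, had 33 against 0 counts (at least 11.5-fold). Factors of the midbrain-hindbrain border showed the same direction. PAX2 had 467 counts against 0 (at least 163-fold higher), engrailed-1 286 against 1 (6.02, 5.73 to 13.53) and PAX5 40 against 1 (3.29, 2.82 to 10.72). The lower hindbrain marker was E3 SUMO-protein ligase EGR2, known as a factor of hindbrain segments, with 3 against 21 counts (-1.86, -5.13 to -1.0003). Of the 15 hindbrain and spinal cord markers 4 were at 0 in the intact library, and of the 23 thalamus and midbrain markers 3. None of either list was at 0 in the castrated library. Among all 10559 genes, 52 were at 0 in the intact library and 39 in the castrated library.

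Several factors of dopamine and serotonin neurons of the midbrain and raphe differed in the same direction. Of the same list, tyrosine 3-monooxygenase (tyrosine hydroxylase, 0.84) and the nuclear receptor NURR1 (0.99995) were above 0 but within 2-fold. PITX3, a factor of midbrain dopamine neurons, stood at 24.9 CPM in the castrated library and 0.685 CPM in the intact library (4.42, 3.93 to 6.83). LMX1B, which dopamine and serotonin neurons need, stood at 22.6 against 1.78 CPM (3.34, 2.85 to 4.61), and LMX1A at 7.59 against 0.137 CPM (3.67, 3.25 to 11.12). LMX1A and LMX1B were much closer in autumn, at 9.11 CPM in castrated against 4.86 CPM in intact birds and at 14.9 against 13.2 CPM. Over the whole thalamus and midbrain list, autumn gave 12 higher and 1 lower of 23 markers. The autumn share called was 56.5%, beside 27.6% of all genes.

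Telencephalic and striatal genes went the other way. The dopamine-regulated phosphatase inhibitor PPP1R1B, known as DARPP-32 and abundant in striatal projection neurons, stood at 0.716 CPM in the castrated library and 166 CPM in the intact library (-7.10, -9.48 to -6.63). BCL11B, a striatal and cortical transcription factor, stood at 2.29 against 124 CPM (-5.47, -6.57 to -5.05). The striatal GTPase Rhes and adenylate cyclase 5, the main cyclase of striatal neurons, had log2 ratios of -5.18 (-5.56 to -4.93) and -4.88 (-6.37 to -4.40). None of the 34 markers was at 0 in either library, and the summed level was 1266 CPM in the castrated and 4365 CPM in the intact library. The 3 higher markers were all neurogenic differentiation factors, among them NEUROD1 at 17.5 against 4.79 CPM (1.76, 1.31 to 2.45) and NEUROD6 at 20.6 against 2.60 CPM (2.77, 2.29 to 3.76).

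**Figure D3:**
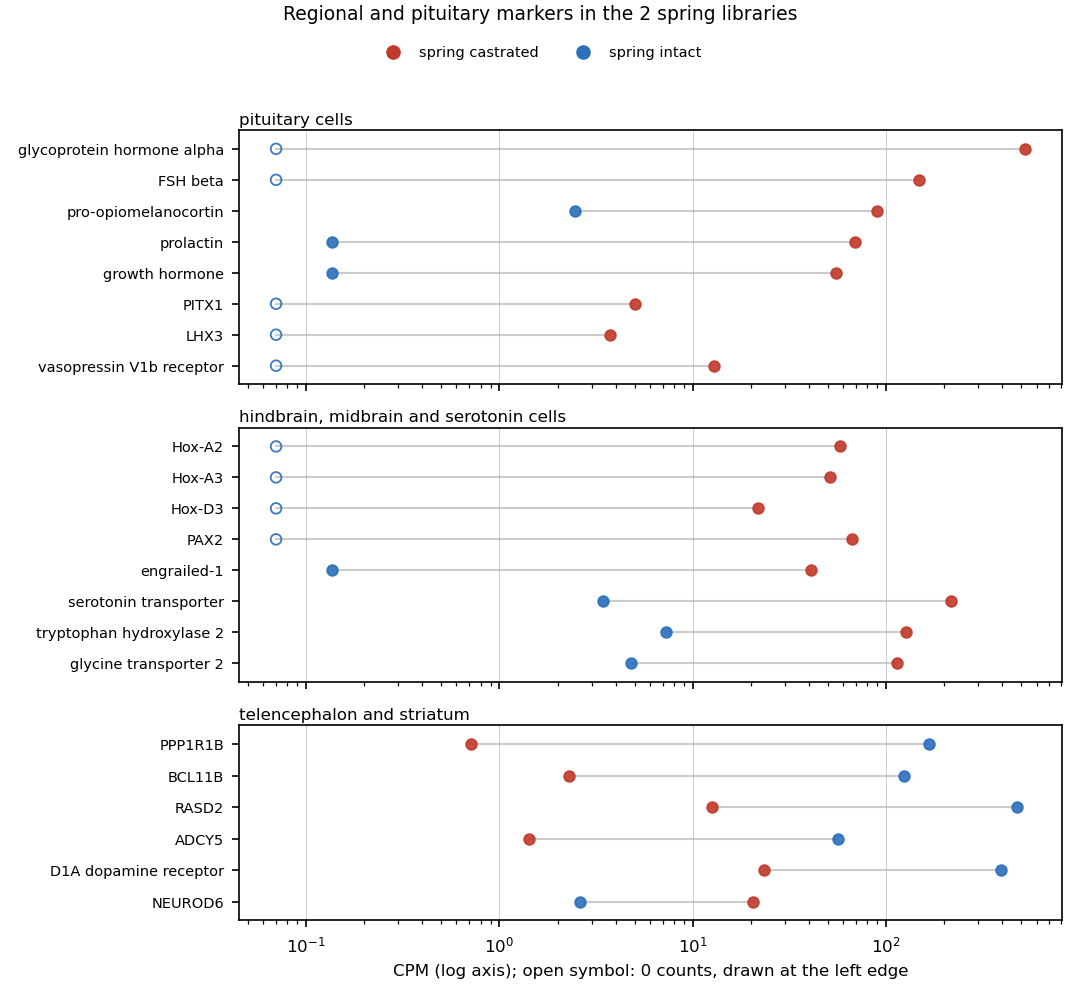
CPM of 22 marker genes in the castrated (red) and intact (blue) spring library on a log axis; an open symbol at the left edge stands for 0 counts. The pituitary and hindbrain genes drawn lie to the right in the castrated library, and 5 of the 6 telencephalic genes lie to the right in the intact library, NEUROD6 being the one that does not.

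Transcription factors of the hypothalamus itself split both ways. Of 30 measured, 10 were at least 2-fold higher in the castrated library and 11 lower, with a median of 0.03. The higher ones include steroidogenic factor 1, LMX1A and LMX1B given above, of which both LMX1 genes also stand in the thalamus and midbrain list. Several of the lower ones are shared with the basal forebrain. LHX8, needed for basal forebrain cholinergic neurons, stood at 0.429 CPM in the castrated library and 53.1 CPM in the intact library (-5.85, -9.24 to -5.39). LHX6, a factor of migrating inhibitory neurons, stood at 1.002 against 32.2 CPM (-4.44, -6.34 to -3.94), and homeobox protein Nkx-2.1, which specifies the ventral hypothalamus and the medial ganglionic eminence, at 2.29 against 22.3 CPM (-3.03, -4.13 to -2.54). DLX1 and DLX2, homeobox factors of inhibitory neurons, had log2 ratios of -2.18 (-2.64 to -1.86) and -2.79 (-3.74 to -2.32). The 66 measured homeobox proteins as a family were 26 higher, 13 lower and 27 neither. Calls made up 70% of the hypothalamic factors and 59.1% of the homeobox family, beside 23.2% of all genes.

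Cerebellar markers did not move as one. Of 17 measured, 5 were higher and 6 lower, with a median of -0.93 and 64.7% called beside 23.2% of all genes. The type 1 inositol trisphosphate receptor, abundant in Purkinje cells and also in the striatum, stood at 276 CPM in the castrated and 1461 CPM in the intact library. Parvalbumin alpha, a calcium buffer of fast-spiking neurons, stood at 962 against 239 CPM (2.01, 1.93 to 2.09), and the granule cell factor BARHL1 at 7.30 against 0.274 CPM (3.33, 2.81 to 7.82).

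Among genes of steroid action, several enzymes were far apart. Aromatase, which turns androgens into estrogens, stood at 6.30 CPM (44 counts) in the castrated library and 33.7 CPM (246 counts) in the intact library, a log2 ratio of -2.33 (-2.92 to -1.95). In autumn it stood at 4.95 CPM in castrated and 26.9 CPM in intact birds, a log2 ratio of -2.33. In songbirds aromatase is expressed in the preoptic area and hypothalamus and also strongly in parts of the telencephalon, so the lower telencephalic markers are given beside it, and their part in this difference was not tested. The 5-beta-reductase AKR1D1, which inactivates testosterone, stood at 1.72 against 8.22 CPM (-1.98, -3.29 to -1.35) and had a like ratio in autumn (-2.15). The 5-alpha-reductase 1, which makes the potent androgen dihydrotestosterone, stood at 22.3 against 16.03 CPM and 5-alpha-reductase 2 at 7.59 against 13.3 CPM, both within 2-fold. The cholesterol side-chain cleavage enzyme, the first step of steroid synthesis, stood at 10.4 against 0.959 CPM (2.91, 2.33 to 4.81). Estradiol 17-beta-dehydrogenase 1 had 18 against 3 counts (1.76, 0.87 to 5.05). Over the list of 15 enzymes, 3 were higher, 2 lower and 10 neither, a share called of 33.3% beside 23.2% of all genes.

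The nuclear sex steroid receptors were lower or level, and 4 membrane receptors or receptor components for sex steroids had ratios above 0. Androgen receptor mRNA stood at 26.8 CPM in the castrated library and 32.1 CPM in the intact library, a log2 ratio of -0.26 whose interval (-0.55 to 0.02) includes equal levels. Estrogen receptor alpha stood at 12.3 against 19.6 CPM (-0.65, -1.07 to -0.27) and estrogen receptor beta at 11.6 against 20.96 CPM (-0.83, -1.26 to -0.46). The progesterone receptor, an estrogen-induced gene in many tissues, stood at 9.59 against 19.998 CPM (-1.02, -1.4999 to -0.63), just past 2-fold. The mineralocorticoid receptor, which binds corticosterone in the brain, was the other receptor called, at 53.7 against 113 CPM (-1.07, -1.26 to -0.90). Above 0, and within 2-fold, were the membrane progestin receptor gamma (0.10, -0.67 to 0.90), the membrane-associated progesterone receptor component 1 (0.53, 0.43 to 0.64) and membrane progestin receptor alpha (0.62, 0.25 to 1.04). The membrane estrogen receptor GPER1 stood at 37.6 against 22.9 CPM (0.71, 0.43 to 1.01). Of 9 receptors measured, none was 2-fold higher, 2 were lower and 7 were neither, a share called of 22.2% beside 23.2% of all genes.

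Of 15 coregulators and chaperones that work with these receptors, none was 2-fold higher and 4 were lower, a share of 26.7% beside 23.2% of all genes. The corepressor NRIP1 stood at 11.7 CPM in the castrated and 64.0 CPM in the intact library (-2.40, -2.80 to -2.11), the coactivator NCOA3 at 28.6 against 72.5 CPM (-1.32, -1.58 to -1.10) and the corepressor NCOR1 at 252 against 530.4 CPM (-1.07, -1.16 to -0.99). HSP90-alpha, the chaperone that holds unliganded steroid receptors, was among the most abundant transcripts, at 7533 against 4303 CPM (0.81, 0.79 to 0.83), short of 2-fold.

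Few reads came from the gonadotropin-releasing hormone gene. GnRH1, the peptide that starts the reproductive cascade, had 17 counts (2.43 CPM) in the castrated library and 11 counts (1.51 CPM) in the intact library, and the interval of the log2 ratio (-0.49 to 1.93) includes equal levels. A difference was therefore not detectable at this depth in spring. In autumn the gene had 2 counts in castrated and 42 counts in intact birds. Tachykinin 1, the precursor of substance P, was the peptide of this list farthest apart, at 3.86 CPM in the castrated and 39.7 CPM in the intact library (-3.20, -3.99 to -2.79). Galanin, which modulates GnRH release, stood at 21.9 against 37.9 CPM (-0.78, -1.09 to -0.50), and its receptor 1 at 17.9 against 62.2 CPM (-1.77, -2.09 to -1.51). The neurokinin B receptor stood at 8.44 against 17.1 CPM and neuropeptide FF receptor 1, which binds gonadotropin-inhibitory hormone in birds, at 8.44 against 4.52 CPM. Over the 12 peptides and receptors measured, none was 2-fold higher, 4 were lower and 8 were neither, with a median of -0.88. The share called was 33.3% beside 23.2% of all genes.

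Activin stimulates follitropin beta transcription in gonadotrophs, and follistatin and inhibin oppose it. The inhibin and activin beta A chain stood at 9.73 CPM in the castrated library and 4.52 CPM in the intact library (1.03, 0.49 to 1.75), and the beta B chain at 11.02 against 4.79 CPM (1.12, 0.61 to 1.82). Follistatin stood at 19.2 against 16.8 CPM (0.18, -0.18 to 0.55), within 2-fold. The activin receptor 2B stood at 1.72 against 8.90 CPM (-2.08, -3.40 to -1.47) and receptor 2A at 196 against 394 CPM (-1.004, -1.10 to -0.91). Thus 2 of 11 genes of this system, both ligand chains, were 2-fold higher and 2, both type 2 receptors, were lower. The share called was 36.4% beside 23.2% of all genes.

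Among 25 hypothalamic peptides, 9 were at least 2-fold higher, 6 lower and 10 neither, with a median of 0.53. Calls made up 60% of the list, beside 23.2% of all genes. The feeding peptides parted ways. Neuropeptide Y, which stimulates feeding, stood at 13.3 CPM in the castrated library and 117 CPM in the intact library (-3.09, -3.47 to -2.83). Agouti-related protein, which the same arcuate neurons make in mammals and birds, stood at 22.2 against 4.25 CPM (2.26, 1.82 to 2.99). In autumn the pair read 27.1 CPM in castrated against 141 CPM in intact birds for neuropeptide Y, and 12.1 against 18.1 CPM for agouti-related protein. Neuropeptide Y is also made by many telencephalic neurons. The feeding peptide QRFP had 0 counts in the castrated and 47 counts in the intact library, at least 14.99-fold lower. The cocaine- and amphetamine-regulated transcript (22.3 against 15.1 CPM), orexin (36.2 against 22.3 CPM) and melanin-concentrating hormone (3.58 against 3.01 CPM) were all within 2-fold.

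Prodynorphin and proenkephalin, precursors of opioid peptides, were lower, and several other peptides higher, as was pro-opiomelanocortin given above. Prodynorphin stood at 11.9 CPM in the castrated library and 183 CPM in the intact library (-3.89, -4.29 to -3.63), proenkephalin at 319 against 739 CPM (-1.21, -1.28 to -1.14) and neurotensin at 54.8 against 215 CPM (-1.96, -2.13 to -1.81). Both opioid genes are abundant in striatal neurons. On the other side, the neuropeptide PACAP stood at 198 against 46.98 CPM (2.06, 1.90 to 2.25) and gastrin-releasing peptide at 68.1 against 14.7 CPM (2.18, 1.91 to 2.53). Somatostatin, which inhibits growth hormone release, stood at 155 against 64.8 CPM (1.25, 1.10 to 1.42). Urotensin-2B had 331 against 0 counts, at least 115-fold higher. Corticotropin-releasing hormone (0.45, 0.11 to 0.83) and thyrotropin-releasing hormone (0.01, -0.24 to 0.26) were within 2-fold. Neuromedin-U had 21 against 5 counts, with a log2 ratio of 1.56 (0.69 to 3.90) that turned to -1.28 when the contig of highest mean count stood for the gene.

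**Figure D4:**
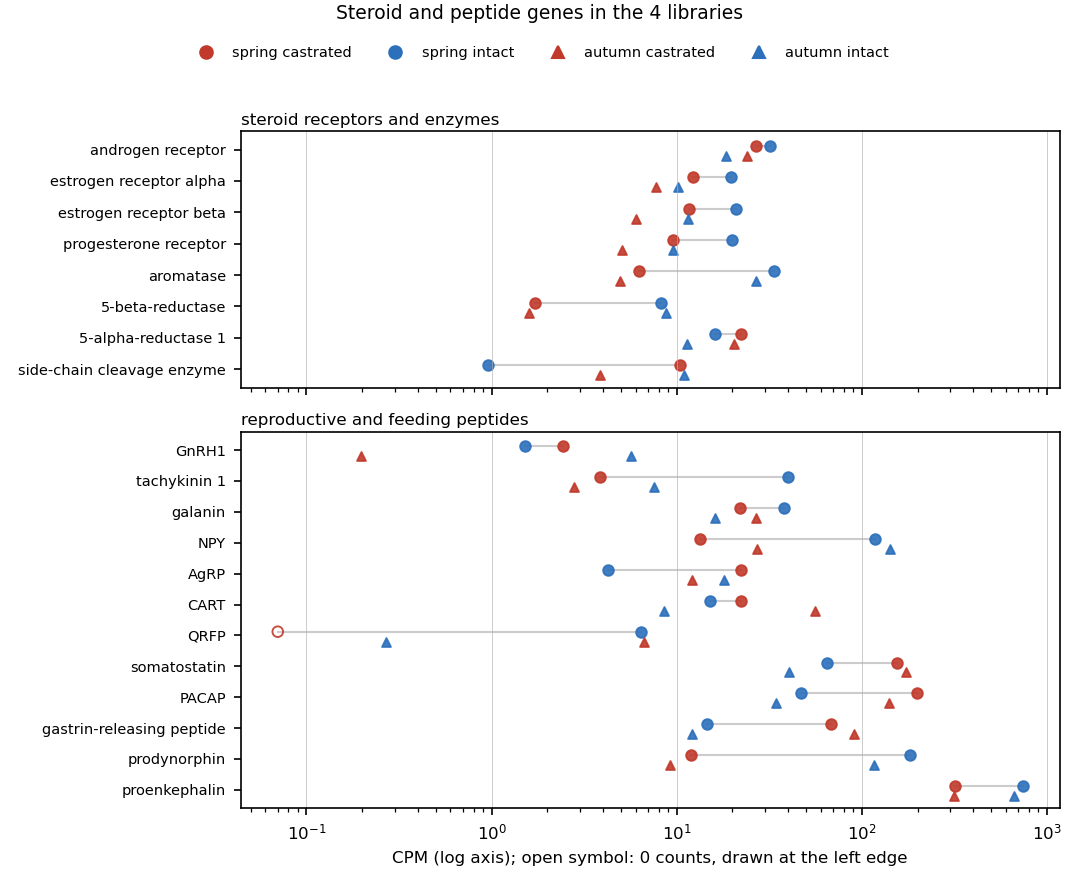
CPM of 8 steroid genes and 12 peptide genes on a log axis in the 4 libraries, with castrated birds in red, intact birds in blue, spring as circles joined by a line and autumn as triangles; the open symbol is 0 counts. Aromatase, 5-beta-reductase, neuropeptide Y and prodynorphin are lower in castrated than in intact birds in both seasons. Agouti-related protein, QRFP, the side-chain cleavage enzyme and GnRH1 are among the genes that are not alike in the 2 seasons.

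Receptors for these peptides and for metabolic hormones held some of the larger differences. The prolactin receptor stood at 8.73 CPM in the castrated library and 115 CPM in the intact library (-3.64, -4.11 to -3.34), the opposite direction to prolactin itself. The insulin-like growth factor 1 receptor stood at 7.16 against 101 CPM (-3.74, -4.27 to -3.41) and the insulin receptor at 58.8 against 241 CPM (-2.03, -2.196 to -1.88). Downstream of them, the regulatory subunit PIK3R1 of phosphatidylinositol 3-kinase stood at 123 against 703 CPM and the adaptor IRS2 at 37.8 against 118 CPM. None of the 21 genes of insulin signalling was 2-fold higher and 8 were lower, a share called of 38.1% beside 23.2% of all genes. Higher receptors included somatostatin receptor 3 at 36.6 against 5.89 CPM (2.54, 2.17 to 3.14) and the oxytocin receptor at 6.15 against 1.10 CPM (2.06, 1.38 to 3.79), though its contig of highest mean count did not differ between the libraries. Of 32 peptide receptors, 5 were higher and 9 lower, a share called of 43.75% beside 23.2% of all genes.

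Genes of inhibitory transmission were called in both directions. Of the 29 genes measured, 4 were higher and 15 lower, with a median of -1.02, and all 4 higher genes belong to glycine signalling. Calls made up 65.5% of the list, beside 23.2% of all genes. Glutamate decarboxylase 2, which makes GABA at terminals, stood at 7.59 CPM in the castrated library and 132 CPM in the intact library (-4.03, -4.55 to -3.72). GABA-A receptor subunits alpha-5 (103 against 927 CPM, -3.17, -3.29 to -3.06) and beta-3 (48.1 against 391.6 CPM, -3.01, -3.19 to -2.86) were lower too. Glycine transporter 2, the transporter of glycinergic neurons of hindbrain and spinal cord, stood at 114 against 4.79 CPM (4.44, 4.09 to 5.11). Glycine receptor alpha-1 stood at 33.5 against 5.48 CPM (2.51, 2.12 to 3.13). The vesicular inhibitory amino acid transporter, which GABA and glycine share, was within 2-fold, at 687 against 887 CPM (-0.37, -0.42 to -0.32). Glycine receptor alpha-3, a subunit of the same family, was among the lower genes, with 3 against 47 counts (-2.90, -6.23 to -2.27). So was glycine receptor alpha-2, with a log2 ratio of -1.02, so glycine genes were called both ways.

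Several glutamate receptors were lower. The metabotropic glutamate receptor 5 stood at 7.30 CPM in the castrated library and 612 CPM in the intact library (-6.30, -6.82 to -5.99), with all 7 contigs of 10 or more counts in the same direction. The NMDA receptor subunits 2B (18.9 against 321 CPM, -4.05, -4.35 to -3.83) and 2A (21.8 against 148 CPM, -2.74, -3.02 to -2.52) were lower, and subunit 2C was higher (28.9 against 4.93 CPM, 2.44, 2.03 to 3.11). The glutamate transporter EAAT2, the main uptake system of astrocytes, stood at 93.7 against 903 CPM (-3.26, -3.39 to -3.15). The vesicular glutamate transporter 2, the subcortical form, stood at 516 against 241 CPM (1.10, 1.02 to 1.18). Of 39 genes, 4 were higher, 16 lower and 19 neither, a share called of 51.3% beside 23.2% of all genes.

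Monoamine genes were called in both directions. The serotonin neuron genes named by the rule were higher in the castrated library. The serotonin transporter stood at 218 against 3.42 CPM (5.80, 5.42 to 6.62). Tryptophan hydroxylase 2, the enzyme of serotonin synthesis in neurons, stood at 126 against 7.26 CPM (4.03, 3.72 to 4.55). The vesicular monoamine transporter, which is not limited to serotonin neurons, stood at 91.3 against 6.30 CPM (3.75, 3.42 to 4.32). Where in the tissue these mRNAs were made was not tested. Receptors went either way. The 5-hydroxytryptamine receptor 3A (4.15 against 1.23 CPM, 1.42, 0.63 to 3.02) and the alpha-1B adrenergic receptor (10.7 against 4.66 CPM, 1.12, 0.60 to 1.83) were higher. Others were lower, with the D1B dopamine receptor at 9.88 against 261 CPM (-4.66, -5.09 to -4.38) and serotonin receptor 6 at 5.01 against 51.9 CPM (-3.25, -3.92 to -2.87). The D1A dopamine receptor stood at 23.3 against 391 CPM (-4.04, -4.30 to -3.84), but its contig of highest mean count went the other way, with a log2 ratio of 2.91, while 3 of 4 contigs followed the sum. Of 44 monoamine genes 12 were higher and 7 lower, with a median of -0.01 and 43.2% called beside 23.2% of all genes.

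The 3 lower genes of acetylcholine signalling were all muscarinic receptors. The muscarinic receptor M4, abundant in striatal neurons, stood at 13.3 CPM in the castrated and 244 CPM in the intact library (-4.14, -4.51 to -3.89), and M5 at 9.88 against 81.6 CPM (-2.98, -3.43 to -2.69). Of the nicotinic subunits, alpha-4 alone passed 2-fold, at 16.7 against 5.75 CPM (1.46, 1.02 to 2.09). In the list of 15 genes 3 were higher, the others being cholinesterase and the tail peptide of acetylcholinesterase. With the 3 lower genes, 40% of the list was called, beside 23.2% of all genes.

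Ion channels were called lower more often than higher, as were all genes (14.6% lower and 8.61% higher). Of 26 sodium, calcium and HCN channel genes, 2 were higher and 11 lower (median -0.72). Of 48 potassium channel genes 10 were higher and 18 lower (median -0.50). Calls made up 50% and 58.3% of these lists, beside 23.2% of all genes. KCNQ5 and KCNQ3, subunits of the M-current that restrains firing, stood at 5.15 against 88.3 CPM (-3.97, -4.63 to -3.62) and 6.15 against 59.9 CPM (-3.18, -3.77 to -2.83). The R-type calcium channel alpha-1E stood at 17.3 against 129.6 CPM and the sodium leak channel NALCN at 29.6 against 205 CPM. The sodium channel beta-4 subunit, which supports fast repetitive firing, was higher at 76.7 against 7.40 CPM (3.29, 2.97 to 3.81).

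Synaptic vesicle and axonal genes also split by gene. The vesicle glycoprotein SV2C stood at 43.2 CPM in the castrated library and 602 CPM in the intact library (-3.78, -3.97 to -3.63), and the calcium sensor synaptotagmin-10 at 34.2 against 652 CPM (-4.23, -4.45 to -4.06). SV2B had 0 counts in the castrated and 195 in the intact library, at least 62.2-fold lower, whereas autumn gave 20.8 CPM in castrated and 28.8 CPM in intact birds. The fusion protein VAMP1, common in brainstem and spinal cord, stood at 158 against 14.2 CPM (3.42, 3.18 to 3.77). Neurofilament medium and light chains, which fill large axons, stood at 1118 against 131 CPM (3.09, 2.999 to 3.19) and 2687 against 844 CPM (1.67, 1.63 to 1.71). Gamma-synuclein, found in brainstem neurons, stood at 888 against 211 CPM (2.07, 1.99 to 2.15). Of 53 vesicle genes 6 were higher and 19 lower, and of 21 calcium-binding and neurofilament genes 6 were higher and 1 lower. Calls made up 47.2% and 33.3% of these lists, beside 23.2% of all genes.

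Of 62 adhesion genes, 5 were higher and 18 lower (37.1% called), and of 57 axon guidance genes 3 were higher and 15 lower (31.6%), beside 23.2% of all genes, which were also lower more often than higher. The synapse organiser LRRTM2 stood at 7.44 CPM in the castrated and 163 CPM in the intact library (-4.36, -4.88 to -4.05), and semaphorin-5B at 21.8 against 133 CPM (-2.58, -2.86 to -2.36). Cerebellin-2, a secreted synapse organiser, was higher at 96.9 against 20.4 CPM (2.22, 1.99 to 2.51). The name neuroligin-3 carried the most counts in both libraries, at 34568 against 13599.8 CPM (1.35, 1.34 to 1.36). Its main contig held 99.1% of the counts, the protein match covered 6.10% of that contig, and 2 of 4 contigs followed the sum. The part of that contig outside the match was not annotated here.

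Some second messenger genes were among those farthest apart. The Ras activator RASGRP1 stood at 8.01 CPM in the castrated library and 1055 CPM in the intact library (-6.95, -7.45 to -6.66), and RGS12, which shortens G-protein signals, at 15.9 against 1018 CPM (-5.96, -6.29 to -5.73). Diacylglycerol kinase eta stood at 1.002 against 94.1 CPM (-5.98, -7.87 to -5.50). The cAMP phosphodiesterase 7B stood at 129 against 1350.4 CPM (-3.39, -3.49 to -3.29) and phospholipase C beta-1 at 76.7 against 721 CPM (-3.22, -3.36 to -3.10). By family, 7 of 19 regulators of G-protein signalling were lower and 1 higher, and 8 of 24 phosphodiesterases and adenylate cyclases were lower and 2 higher. Of 32 protein kinase C, diacylglycerol kinase and phospholipase C genes, 15 were lower and 3 higher. Calls made up 42.1%, 41.7% and 56.25% of these families in that order, beside 23.2% of all genes. The scaffold MPDZ had the lowest ratio of all named genes, with 5 counts in the castrated and 2056 in the intact library (-7.86, -10.24 to -7.40). In autumn MPDZ stood at 37.5 CPM in castrated and 218 CPM in intact birds.

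Myelin genes were higher in the castrated library. Among 27 measured genes of oligodendrocytes and myelin, 14 passed 2-fold upward, none was lower and 13 were neither, with a median of 1.09 and summed levels of 24953 CPM in the castrated and 11696 CPM in the intact library. Proteolipid protein, the main membrane protein of central myelin, stood at 8976 against 3974 CPM (1.18, 1.16 to 1.196), and myelin basic protein, which compacts the sheath, at 8357 against 3557 CPM (1.23, 1.21 to 1.25). The early myelination marker BCAS1 stood at 1200.1 against 480.1 CPM (1.32, 1.26 to 1.38), and the gap junction protein beta-1 (connexin 32) of oligodendrocytes at 47.8 against 12.2 CPM (1.93, 1.63 to 2.33). Of 11 markers of oligodendrocyte precursors, 4 were higher and 2 lower. Calls made up 51.9% of the myelin list and 54.5% of the precursor list, beside 23.2% of all genes.

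Other glia and vessels differed less. Of 17 astrocyte and tanycyte genes, 5 were higher and 1 lower (median 0.78), and 12 had ratios above 0 and 5 below. The lower one was the glutamate transporter EAAT2 (-3.26), given above. Clusterin, a secreted chaperone of astrocytes, stood at 956 CPM in the castrated and 394 CPM in the intact library (1.28, 1.22 to 1.34). Of 23 microglia and macrophage genes, 5 were higher and 1 lower (median 0.68), with the class II invariant chain at 445 against 139.8 CPM (1.67, 1.57 to 1.77) and complement C1q subunit B at 13.5 against 6.03 CPM (1.10, 0.63 to 1.71). The lower gene was the phosphatase INPP5D at 30.1 against 168 CPM. Of 32 endothelial and pericyte genes, 5 were higher and 1 lower, the lower one being smooth muscle myosin (myosin-11) at 19.9 against 106 CPM (-2.38, -2.68 to -2.15). Markers of red blood cells (3 of 11) and of lymphocytes and antigen presentation (3 of 21) held a few higher genes and no lower one. The share called was 35.3% for astrocytes and tanycytes and 26.1% for microglia and macrophages, beside 23.2% of all genes. It was 18.8% for endothelium and pericytes, 27.3% for red blood cells and 14.3% for lymphocytes and antigen presentation.

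Immune receptors, growth factor signalling and matrix genes held single genes far apart. Interleukin-1 receptor-like 1, the interleukin-33 receptor, stood at 4.44 CPM in the castrated library and 264 CPM in the intact library (-5.74, -6.46 to -5.39), with all 11 contigs of 10 or more counts in the same direction. Interleukin-6, a cytokine, stood at 12.7 against 43.8 CPM (-1.74, -2.14 to -1.44). Of 43 innate immune genes 5 were higher and 8 lower. The type 2 receptor for bone morphogenetic proteins stood at 22.8 against 276 CPM (-3.57, -3.84 to -3.37), fibroblast growth factor 1 at 111 against 40.5 CPM (1.45, 1.26 to 1.66) and the Wnt inhibitor SFRP2 at 98.3 against 21.9 CPM (2.14, 1.92 to 2.42), in a list of 52 with 3 higher and 6 lower. Reelin, which guides neuron layering, stood at 378 against 1060.0 CPM (-1.49, -1.55 to -1.43), though 6 of 11 contigs followed the sum. Collagen III, a fibrous matrix protein, stood at 5.30 against 20.5 CPM (-1.86, -2.52 to -1.43), and of 52 matrix genes 5 were higher and 11 lower. The share called was 30.2% of the innate immune, 17.3% of the growth factor and 30.8% of the matrix genes, beside 23.2% of all genes.

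Choroid plexus genes are given with their autumn values. Of 22 choroid plexus genes, 8 were higher and 3 lower in spring, while in autumn 2 were higher and 9 lower. Transthyretin, the thyroid hormone carrier that the choroid plexus secretes, stood at 805 CPM in the castrated and 239 CPM in the intact library in spring (1.75, 1.68 to 1.83), and at 1746 and 7622 CPM in autumn. Summed over the list, spring gave 2885 against 3039 CPM and autumn 3787 against 10577 CPM. Transthyretin alone made up 7622 CPM of the autumn intact sum. Of 61 genes of motile cilia, 6 were higher and 7 lower in spring, with adenylate kinase 9, a nucleotide kinase, at 6.01 against 101 CPM (-3.97, -4.56 to -3.62). The spring share called was 50% of the choroid plexus and 21.3% of the cilia genes, beside 23.2% of all genes. In autumn it was 50% of the choroid plexus genes, beside 27.6% of all genes.

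Clock genes were lower or level, and none was 2-fold higher. Of 21 measured, 6 were lower and 15 neither, with a median of -0.42. The share called was 28.6% beside 23.2% of all genes, which were also lower more often than higher. CLOCK, the activator of the circadian loop, stood at 16.5 CPM in the castrated library and 97.7 CPM in the intact library (-2.53, -2.87 to -2.28). The output factors TEF and HLF, whose levels cycle under the clock, stood at 26.05 against 178 CPM (-2.75, -3.004 to -2.55) and 33.9 against 148 CPM (-2.11, -2.33 to -1.92). The repressor PER3 had 1 count against 48 (-3.46, -10.85 to -2.97). PER2 stood at 48.2 against 98.6 CPM (-1.02, -1.22 to -0.84), a log2 ratio that became 0.17 when the contig of highest mean count stood for the gene. NR1D1 (REV-ERB alpha), a repressor in the loop, stood at 11.7 against 32.5 CPM (-1.43, -1.85 to -1.10). The cryptochromes CRY1 (214 against 230.1 CPM) and CRY2 (138 against 187 CPM) were within 2-fold. The time of day of sampling is not in the labels, and its part in these differences was not tested.

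Among 18 photoreception and melatonin genes, 1 was higher and 6 lower, a share called of 38.9% beside 23.2% of all genes. Melatonin receptor 1B stood at 3.86 CPM in the castrated and 15.3 CPM in the intact library (-1.86, -2.65 to -1.37). Opsin-5, a deep-brain photoreceptor of birds, had 3 against 20 counts (-1.80, -5.07 to -0.92), and melanopsin 8 against 21 (-1.04, -2.71 to -0.10). Both rest on few reads.

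Of 17 thyroid hormone genes 4 were higher, 1 lower and 12 neither, a share called of 29.4% beside 23.2% of all genes. Type 2 deiodinase, which makes active triiodothyronine and is induced by long days in the mediobasal hypothalamus, stood at 35.6 CPM in the castrated library and 14.2 CPM in the intact library (1.29, 0.99 to 1.67). In autumn it stood at 19.1 CPM in castrated and 33.1 CPM in intact birds, a log2 ratio of -0.78. The enzyme that degrades thyrotropin-releasing hormone stood at 36.4 against 95.3 CPM (-1.38, -1.60 to -1.18). Thyroid receptor alpha (40.5 against 62.2 CPM), the thyroid hormone transporter MCT8 (35.4 against 50.5 CPM) and EYA3, a long-day response gene of the pars tuberalis in other species (40.6 against 45.2 CPM), were within 2-fold. The other 3 higher genes were transthyretin and both subunits of thyrotropin, given above.

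**Figure D5:**
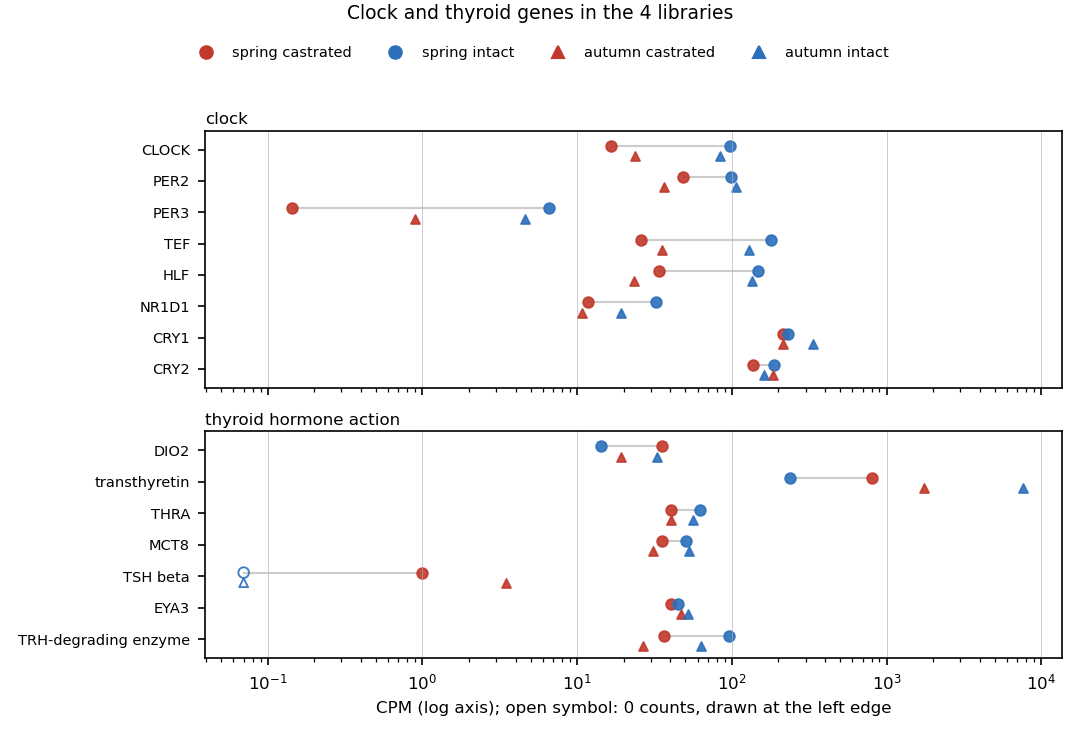
CPM of 8 clock genes and 7 thyroid genes on a log axis in the 4 libraries, with castrated birds in red, intact birds in blue, spring as circles joined by a line and autumn as triangles; open symbols are 0 counts. CLOCK, TEF, HLF and PER3 are lower in castrated than in intact birds in both seasons, while type 2 deiodinase and transthyretin are higher in castrated birds in spring and lower in autumn.

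Energy metabolism leaned higher by less than 2-fold. Of 52 genes of oxidative phosphorylation, 51 had a ratio above 0 in spring, 5 were 2-fold higher and none was 2-fold lower. The median was 0.62 in spring and 1.35 in autumn. In autumn 35 were 2-fold higher, a share called of 67.3% beside 27.6% of all genes. Cytochrome c oxidase subunit 7C stood at 58.7 CPM in the castrated and 18.9 CPM in the intact library (1.61, 1.35 to 1.92). Of 33 glycolysis and citric acid cycle genes 6 were higher and 1 lower, with lactate dehydrogenase B at 921 against 376 CPM (1.29, 1.23 to 1.36) and alpha-enolase at 1699 against 704 CPM (1.27, 1.22 to 1.32). Sterol and fatty acid synthesis held 6 higher and 2 lower genes of 38. None of the 22 measured cytosolic ribosomal proteins passed 2-fold in spring, while 13 were higher in autumn. Their share called in autumn was 59.1%, beside 27.6% of all genes. The small heat shock proteins HSPB1 and HSPB8 were higher, at 39.4 against 8.90 CPM (2.08, 1.75 to 2.56) and 32.2 against 8.36 CPM (1.88, 1.53 to 2.38), among 47 chaperone genes of which 5 were higher and none lower. The spring share called was 9.62% for oxidative phosphorylation and 21.2% for glycolysis and the citric acid cycle, beside 23.2% of all genes. It was 21.1% for sterol and fatty acid synthesis and 10.6% for the chaperones.

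Genes of neuronal activity and chromatin modifiers were called lower more often than higher, as were all genes (14.6% lower and 8.61% higher). The share called was 37.0% of the immediate early genes and 29.8% of the chromatin modifiers, beside 23.2% of all genes. Of 27 immediate early genes, which neurons switch on within minutes of firing, none was 2-fold higher and 10 were lower, among them JunD and PER2, with a median of -0.52. EGR3 stood at 4.29 CPM in the castrated library and 84.2 CPM in the intact library (-4.14, -4.87 to -3.77), and ARC, a regulator of synaptic strength, at 30.2 against 94.6 CPM (-1.63, -1.88 to -1.42). JunD stood at 34.9 against 296 CPM (-3.07, -3.28 to -2.89) in counts, while the authors' TPM gave a log2 ratio of 0.070. The proto-oncogene c-Fos leaned the other way, at 77.1 against 49.995 CPM (0.62, 0.43 to 0.82), and the nuclear receptor subfamily 4 group A member 2 (NURR1) fell just short of 2-fold higher, at 8.44 against 3.97 CPM. Of 57 chromatin modifiers 16 were lower and 1 higher, with the DNA demethylases TET1 at 3.86 against 60.95 CPM (-3.82, -4.60 to -3.42) and TET2 at 9.30 against 86.6 CPM (-3.15, -3.61 to -2.85). The higher one was the remodeller CHD7, at 50.8 against 1.92 CPM (4.41, 3.96 to 5.61). The microtubule protein doublecortin, a marker of young migrating neurons, stood at 8.59 against 159 CPM (-4.14, -4.61 to -3.84). Most genes of neurogenesis and proliferation did not follow it. Of 36 measured, 7 were higher, 4 lower and 25 neither, with a median of 0.28 and 30.6% called.

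A few other names were far apart. Zinc transporter 3, which fills synaptic vesicles with zinc, had 142 counts in the castrated and 0 in the intact library, at least 49.5-fold higher. The repair enzyme poly(ADP-ribose) polymerase 3 had 166 against 2 counts (4.97, 4.56 to 9.496). Inositol-trisphosphate 3-kinase A, abundant in dendritic spines, had 0 counts in the castrated and 127 in the intact library, at least 40.5-fold lower. The scaffold SH3PXD2A had 0 against 193 counts and the rhomboid protein RHBDL3 0 against 135, at least 61.6-fold and 43.1-fold lower. Some of the most abundant transcripts were level, with creatine kinase B at 4076 against 4056 CPM (0.01, -0.02 to 0.03), while the dendritic microtubule protein MAP2 stood at 2718 against 4519.6 CPM (-0.73, -0.76 to -0.71) and the surface protein Thy-1 at 7903 against 3199.7 CPM (1.30, 1.28 to 1.33).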

How the data were processed

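Total RNA of hypothalamus was sequenced in 4 libraries, 1 for each group. Reads were trimmed with Trimmomatic and quantified with kallisto, per the submitters' processing notes, which give no versions; neither the assembler nor the protein search tool is named in the sources used here. Per the file headers, the deposited tables hold the estimated counts and the TPM of 507906 contigs. TPM is the authors' value, scaled by contig length to a fixed total per library. A deposited table of protein matches gives the identity of each match in percent, its bit score and e-value, and how much of the contig it covered, per the file headers.

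Each contig was given to the collared flycatcher protein of its top bit score at an e-value of at most 1e-05, which kept 50994 contigs of 59043 with any match, of which 143 tied between names. Estimated counts were summed by protein name, rounded to whole numbers and scaled to CPM (counts per 1000000) with TMM factors from edgeR 4.0.16 in R 4.3.3, where factors ran from 0.925 to 1.04. Names averaging at least 1 CPM over the 4 libraries were kept. Names shared by contigs of near-identical paralogs or fragments were not resolved, and 407 of the names kept are uncharacterised. Log2 ratios used 0.5 CPM added to each library. Intervals are exact binomial intervals (SciPy 1.17.1) at 95%, and a count of 0 was set to 3 counts for a bound on the fold. With 1 library in each group no test was made. The procedure was run on simulated counts with known folds for the same genes. These held counting error only, so the run cannot speak to the spread between birds or to how reads were given to contigs.

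The comparison, its 48 gene lists and its 16 name families were chosen with earlier results of these data known. List symbols were paired with protein names for 1452 of 1870 symbols, and 1334 of the paired names were among the genes kept. Genes were named by a rule: the 15 higher and 15 lower genes with the counting bound farthest from 0, the 8 most abundant of each library, in each list the 6 members with the largest ratio and 30 or more counts, all measured members of the steroid, gonadal, clock, thyroid and peptide lists, and list members 2-fold apart in opposite directions in the 2 seasons. PITX1, LHX3, POU1F1, DLK1, secretogranin-2, EGR2, c-Fos, NURR1, the 5-hydroxytryptamine receptor 3A, the alpha-1B adrenergic receptor, NEUROD6, Nkx-2.1, and the vesicular transporters of glutamate and of GABA and glycine fall outside this rule and were chosen after their values were seen. TCF7L2, GBX2, LHX9, protein kinase C delta, tyrosine 3-monooxygenase and glycine receptor alpha-2 were likewise chosen after their values were seen. Other normalizations (median-of-ratios factors from DESeq2 1.42.0, and library totals), filters, added CPM values, match limits, a single contig per gene, thinned counts and the authors' TPM were tried. Some genes that the rule selects are not reported here.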

Additional observations from a re-analysis of the deposited data

Results flagged for a closer look

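Over all genes, 62 were at least 2-fold apart in one direction in spring and in the other in autumn, which is 4.62% of the higher and 1.30% of the lower calls of spring. Of these, 20 stand in a list or family. The naming rule selects genes for this pattern, and 8 are given here. With 1 library in each group the difference was not tested for any of them. The cholesterol side-chain cleavage enzyme, the first step of steroid synthesis, had a log2 ratio of castrated over intact birds of 2.91 in spring and -1.39 in autumn. The feeding peptide QRFP had 0 and 47 counts in castrated and intact birds in spring (-3.79 on the scale with 0.5 CPM added) and 3.21 in autumn. Neuromedin-U had 1.56 and -2.92, and the potassium channel KCNH6 1.61 and -3.82. Transthyretin had 1.75 and -2.13, the inward rectifier potassium channel 13, which the choroid plexus also makes, 1.80 and -3.29, and the matrix protein chondroadherin 3.41 and -3.80. These last 3 genes stood highest in the autumn intact library, at 7622, 77.1 and 567 CPM. The chromatin remodeller CHD7 had 4.41 and -1.44. The sign for neuromedin-U in spring depends on which contigs stand for the gene.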

How the results depend on the processing

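In 10 alternative settings the number of genes 2-fold higher ranged from 624 (mean of at least 5 CPM) to 1317 (the authors' TPM) beside 909, and the number 2-fold lower from 1239 to 1984 beside 1539, in the same 2 settings. All stayed within 1.5 times the main count. Of the 6 list medians past 2-fold, all 6 kept their sign in every setting and 4 stayed past 2-fold in all. Of 198 named genes followed through these settings, 62 moved out of their counting interval and 3 more reversed when a single contig stood for the gene. With the authors' TPM 40 moved and 1 more reversed, and with 2 CPM added 45 moved, so many ratios depend on the processing beyond their intervals. Of the 165 followed genes past 2-fold, 160 kept their sign in every setting that gave a value and 147 stayed past 2-fold. Of the others, neuromedin-U became -1.28, the D1A dopamine receptor 2.91 and PER2 0.17 when the contig of highest mean count stood for the gene, the oxytocin receptor showed no difference in that setting, and JunD became 0.070 with the authors' TPM. The cause was not tested. Depth limited the low genes: 525 of the genes analysed had fewer than 10 counts in the castrated library and 479 in the intact library. No paired analysis was possible because each group holds 1 library and the labels give no shared replicate numbers.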
